A study of Mus musculus with 38 samples.

Results

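The genes for which the effect of the DDC diet differed between epithelial and macrophage segments are described here for TrailΔmye livers, which lack TRAIL in myeloid cells. A region of interest (ROI) drawn around the ductular reaction was divided into a PanCK+ segment, which captures cytokeratin-positive cholangiocytes, and an IBA1+ segment, which captures macrophages. For each gene the PanCK+ minus IBA1+ difference of an ROI was compared between diets, in 4 ROIs of control diet-fed mice (026 to 029) and 5 ROIs of DDC-fed mice (032 to 036). These 9 ROIs of 23 hold 18 of the 38 segments of the series, and were chosen because they are the periportal ROIs of this genotype with both segments.

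TrailΔmye mice carry a conditional Trail allele, made from a knock-out-first line by Flp recombination, together with Lyz2-Cre, which acts in the myeloid lineage (macrophages, monocytes and neutrophils) and not in cholangiocytes. The control diet-fed and the DDC-fed mice used here share this genotype on a C57BL/6 background, and were 6 to 8 weeks old. DDC (3,5-diethoxycarbonyl-1,4-dihydrocollidine) was given at 0.1% of the diet in 3 rounds of 5 days with 2 rounds of 3 days on chow between them, over 21 days, and livers were taken on day 22. The WT mice used for comparison lack the deletion and had the same diets, with 2 ROIs on the control diet and 4 on DDC that hold both segments. The number of mice and the mouse behind each ROI are not given, so ROIs can share an animal. Every adjusted p below is over ROIs and is too small to stand for animals.

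DDC causes porphyrin plugs in bile ducts and a cholestatic injury with a ductular reaction, that is, an expansion of duct-like epithelial cells. These cells are known to sit among macrophages and matrix-producing fibroblasts. Kupffer cells, the resident macrophages of the liver sinusoids, are marked by Clec4f, and cholestatic injury is known to bring in macrophages from blood monocytes. A segment is a small area of tissue, not a purified cell type, so RNA of neighbouring hepatocytes and fibroblasts is collected too. Fewer cells of a type and less RNA per cell cannot be told apart in such data.

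The segment labels were checked first. Krt19, a keratin of cholangiocytes, and Epcam, an epithelial adhesion molecule, were higher in the PanCK+ than in the IBA1+ segment of all 9 ROIs, by 0.58 to 4.68 and by 2.31 to 4.70 on the log2 scale. C1qa, a complement gene of macrophages, was lower in the PanCK+ segment of all 9 ROIs, by a log2 difference of -4.09 to -2.09. None of these 3 genes had a called interaction. Clec4f, Alb and Col1a1, also set as checks, did have called interactions and are described below. Clec4f was lower in the PanCK+ segment of all 9 ROIs, while Alb and Col1a1 took no single order of the segments. Depth differed widely. Total counts were 35079 to 54834 in the PanCK+ segments on the control diet, 80722 to 220382 in the IBA1+ segments on the control diet, 172180 to 836971 in the PanCK+ segments on DDC and 158220 to 568720 in the IBA1+ segments on DDC. The values do not go below 1 count, and 19.7% to 41.5% of genes lay at 1 in the PanCK+ segments on the control diet, against 0.578% at most in those on DDC. Both segments of ROI 035 stood apart, with the largest total of their group, a lowest count of 22 and 14 and a negative probe at 5.15 and 4.89 per 100000 counts, against 1.08 to 2.05 in the other DDC segments. Its normalized values of abundant genes such as Spp1 and Alb were the lowest of its group, so the results were also taken without it. Gm21783, a Y-linked target, was at 1 to 6 counts in every control diet segment and at 64 to 168 counts in every DDC segment. Ddx3y, also Y-linked, had 2.10 to 5.25 normalized counts in PanCK+ segments on the control diet and 4.90 to 8.40 on DDC. On the control diet 3 of these segments were at 1 count. By edgeR's quasi-likelihood test its diet effect was not called in PanCK+ segments (adjusted p = 0.423) and was called in IBA1+ segments (1.53, adjusted p = 0.00478). Eif2s3y, a further Y-linked gene, was called in neither (adjusted p = 0.361 and 0.403). The study's methods describe the mice as matched for age and gender, but the sex behind each ROI is not given. In these 9 ROIs the Gm21783 counts moved with the diet in every segment, while those of Ddx3y and Eif2s3y moved less clearly. The part of the Y-linked counts in the results was not tested.

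A total of 172 of 10547 genes had a diet effect that differed between the segment types (1.63%), at an adjusted p under 0.05 in edgeR's quasi-likelihood test with the ROI as a block. The interaction is the diet's log2 fold change in PanCK+ segments minus that in IBA1+ segments. It was above 0 for 137 genes (1.3%) and below 0 for 35 genes (0.332%). The median over all genes was 0.15, and values are best read against it. The split depended on the scaling. Of the called genes, 79.7% lay above 0 here, 58.5% with TMM factors, where 83 were higher and 59 lower and the median of all genes was -0.04, and 54.4% with DESeq2, where 74 were higher and 62 lower and the median was -0.12. All 172 genes kept their sign with TMM factors, and 171 did with DESeq2. Without the ROI block 28 genes were called, all among these 172. The per-ROI differences of the DDC and the control diet ROIs did not overlap for 114 of the 137 and for 19 of the 35 genes, against 6.1% of all genes in either direction.

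The called genes fell into a few plain patterns. Of the 137 genes with a positive interaction, 100 were called lower on DDC in IBA1+ segments, against 4.62% of all genes, and 12 were called higher on DDC in PanCK+ segments, against 1.32% of all genes. A further 25 were called in neither segment type on its own, and 10 of the 100 were called lower in PanCK+ segments too, against 0.569% of all genes. Of the 35 genes with a negative interaction, 26 were called higher on DDC in IBA1+ segments, against 3.04% of all genes, 6 were called lower in PanCK+ segments, and 4 were called in neither. The interaction is made of these same segments, so that the single-segment calls only say where a gene moved. The direction of the PanCK+ calls depended on the scaling, with 139 genes higher and 60 lower here, 56 and 82 with TMM factors and 47 and 105 with DESeq2. For 134 of the 137 genes the PanCK+ level was below the IBA1+ level on the control diet, and for 61 it was below on the control diet and above on DDC. For 24 of the 35 it was above on the control diet and below on DDC. Genes chosen for a difference between the diets tend to such orders by that choice. These counts have no share of all genes beside them and are a description only.

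**Figure D1:**
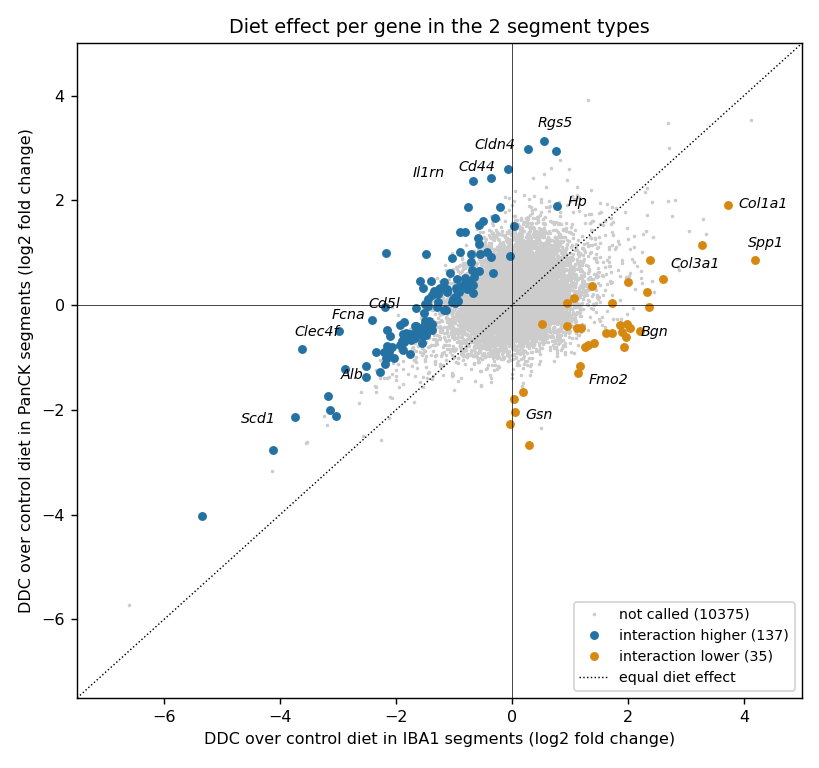
Diet effect of each gene in IBA1+ segments (horizontal axis, log2 fold change of DDC over control diet) and in PanCK+ segments (vertical axis), in TrailΔmye periportal ROIs, with 1 point a gene. Genes with a called interaction lie off the dotted line of equal effects, 137 above it in blue and 35 below it in orange.

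The promoters of Spp1, Cldn4 and Fcna are shown as 1 example each of a gene that rose in IBA1+ segments, rose in PanCK+ segments and fell in IBA1+ segments. They are the 250 bases before the transcription start, 5′ to 3′, from RefSeq on GRCm38.p6, and for Spp1 the most upstream of 2 listed starts. Capitals mark the letters TATAAA, the AP-1 motif TGANTCA, which reads the same on the other strand, and GAGGAA, an ETS-type core, each searched on both strands.
Spp1 promoter, chr5:104434861-104435110, plus strand: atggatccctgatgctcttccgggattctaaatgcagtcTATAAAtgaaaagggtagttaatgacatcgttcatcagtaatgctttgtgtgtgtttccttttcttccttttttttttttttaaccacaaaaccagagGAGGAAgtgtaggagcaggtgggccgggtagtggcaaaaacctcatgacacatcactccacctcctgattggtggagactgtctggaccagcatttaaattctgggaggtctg
Cldn4 promoter, chr5:134946935-134947184, minus strand: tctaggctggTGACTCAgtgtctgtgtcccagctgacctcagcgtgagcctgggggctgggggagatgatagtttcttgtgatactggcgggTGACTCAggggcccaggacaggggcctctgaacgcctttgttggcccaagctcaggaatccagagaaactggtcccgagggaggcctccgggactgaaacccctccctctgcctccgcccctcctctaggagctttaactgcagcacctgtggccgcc
Fcna promoter, chr2:25627975-25628224, minus strand: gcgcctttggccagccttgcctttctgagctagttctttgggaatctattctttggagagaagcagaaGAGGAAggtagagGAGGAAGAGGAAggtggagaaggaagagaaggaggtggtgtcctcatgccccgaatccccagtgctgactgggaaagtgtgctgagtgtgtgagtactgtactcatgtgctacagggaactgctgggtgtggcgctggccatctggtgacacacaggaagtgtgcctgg
TATAAA occurred in 12.4%, TGANTCA in 6.75% and GAGGAA in 23.3% of 32851 listed promoter windows of this length. The Spp1 window held TATAAA and GAGGAA once each, the Cldn4 window TGANTCA at 2 places, and the Fcna window GAGGAA at 3 places. A match of letters is a description and not a bound site.

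The lowest interaction value of the called genes whose ROIs do not overlap belonged to Spp1, which encodes osteopontin, a secreted phosphoprotein of bile duct epithelium that attracts leukocytes. In the control diet ROIs 026 to 029 its PanCK+ level was 479.7, 441.2, 554.1 and 653.4 normalized counts and its IBA1+ level was 8.75, 3.94, 7.22 and 11.8. In the DDC ROIs 032 to 036 its PanCK+ level was 1318, 1134, 1096, 343.9 and 970.2, and its IBA1+ level was 182.9, 186.7, 164.1, 50.1 and 140.3. Spp1 stayed an epithelial gene, higher in the PanCK+ segment of every ROI, but the gap narrowed from a log2 difference of 5.78 to 6.81 on the control diet to 2.60 to 2.85 on DDC. The interaction was -3.35 ± 0.32 (SE) with an adjusted p of 2.43e-19. The diet effect was 4.19 in IBA1+ segments (adjusted p = 1.83e-11) and 0.87 in PanCK+ segments (adjusted p = 0.305), so Spp1 rose in the IBA1+ segments. The interaction was called in each of the 19 other settings, with values from -3.99 to -3.17.

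Of the 35 genes with a negative interaction, 9 were on the fibroblast or the matrix list, which hold 16 and 25 of the 10547 measured genes. Col3a1, a fibrillar collagen of scar tissue, was at 21.0, 34.1, 52.5 and 33.6 normalized counts in the PanCK+ and at 15.8, 57.8, 54.5 and 21.0 in the IBA1+ segments of the control diet ROIs. On DDC it was at 48.9, 53.9, 141.6, 56.9 and 95.8 in the PanCK+ and at 336.1, 237.6, 462.2, 232.1 and 603.2 in the IBA1+ segments. The 2 segments were alike on the control diet and the IBA1+ segment was higher in all 5 DDC ROIs, with an interaction of -2.21 ± 0.34 (SE, adjusted p = 3.95e-07). Bgn, the matrix proteoglycan biglycan, had 45.5, 26.3, 52.5 and 54.6 in PanCK+ and 22.8, 31.5, 30.2 and 26.3 in IBA1+ segments on the control diet. On DDC it had 33.9, 25.2, 42.9, 31.4 and 31.1 in PanCK+ and 103.8, 101.8, 147.1, 84.2 and 138.1 in IBA1+ segments. It rose in the IBA1+ segments by 2.03 (adjusted p = 2.69e-07), the PanCK+ change of -0.45 was not called, and the interaction was -2.45 ± 0.32 (SE, adjusted p = 7.24e-10).

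The same direction held for the collagen VI chain Col6a3, with an interaction of -2.47 ± 0.44 (SE), and for fibulin 1 (Fbln1, -2.78 ± 0.51), the metalloproteinase inhibitor Timp3 (-2.19 ± 0.39), thrombospondin 2 (Thbs2, -2.14 ± 0.62) and the proteoglycan decorin (Dcn, -1.69 ± 0.34). Each was called higher on DDC in IBA1+ segments, by log2 values from 1.63 (Timp3) to 2.36 (Col6a3). Thbs2 was lost when any of 6 ROIs was left out. Col1a1 (-1.91 ± 0.47), Col5a1 (-2.43 ± 0.54) and the intermediate filament Vim (-1.61 ± 0.44) had called interactions with overlapping ROIs. Col1a1 was lost without ROI 028 or 029, Vim without ROI 026, 028, 029 or 034, and Col5a1 without ROI 028, where it was at -1.46 (adjusted p = 0.614). Col1a1 rose in both segment types, by 3.73 in IBA1+ and 1.92 in PanCK+ segments (adjusted p = 2.32e-12 and 0.01). Of the 16 measured fibroblast and stellate cell markers, 4 had a called negative interaction (Bgn, Col1a1, Col3a1 and Dcn), against 0.332% of all genes. None had a called positive one, and 13 lay below 0, with a median of -1.45 against 0.15 for all genes. Without the ROI block 1 of the 16 was called lower. Of 25 measured matrix genes, 5 were called lower (Col5a1, Col6a3, Mmp2, Timp3 and Vim), against 0.332% of all genes. Mmp7, a matrix protease made by injured epithelium, was the 1 called higher, against 1.3% of all genes, and the list's median was -0.85.

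The summed level of the fibroblast list was 160.2 to 239.5 normalized counts in PanCK+ and 143.6 to 336.1 in IBA1+ segments on the control diet. On DDC it was 245.1 to 502.4 in PanCK+ and 839.9 to 1895 in IBA1+ segments, which do not overlap. The IBA1+ segments on DDC thus held fibroblast RNA together with that of macrophages, and its part in the negative interactions was not tested. The fibroblast and the matrix list had medians below that of all genes in all 20 settings, the main one included, at -1.86 to -1.12 and -1.27 to -0.70.

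Other genes with the lowest values are less tied to scar matrix. Gas6, a ligand of the TAM receptors with which macrophages recognise dying cells, was at 91.0, 118.2, 128.7 and 111.3 in PanCK+ and at 10.5, 39.4, 24.3 and 24.9 in IBA1+ segments on the control diet. Its DDC levels were 82.4, 74.9, 90.0, 51.0 and 91.2 in PanCK+ and at 114.3, 50.1, 107.7, 63.8 and 80.3 in IBA1+ segments. In all 4 control diet ROIs and in 2 of the 5 DDC ROIs the PanCK+ segment held more Gas6, with a rise of 1.72 in IBA1+ segments (adjusted p = 5.15e-05) and an interaction of -2.29 ± 0.28 (SE, adjusted p = 2.97e-11). Gpx3, a secreted glutathione peroxidase, had an interaction of -2.65 ± 0.56 (SE) that was lost without ROI 029. Gas1, a membrane protein of growth-arrested cells, had -2.28 ± 0.62 (SE) and was lost without ROI 027, 028 or 029.

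Gsn and Fmo2 differed from the genes above in that they fell in the PanCK+ segments. Gsn, the actin-severing protein gelsolin, was at 14.0, 23.6, 68.3 and 67.2 in PanCK+ segments on the control diet and at 9.70, 4.90, 18.3, 9.85 and 11.3 on DDC. Its IBA1+ level was 12.3, 38.1, 41.4 and 28.9 on the control diet and 33.4, 15.4, 42.0, 35.5 and 35.3 on DDC. The fall of 2.04 in PanCK+ segments was called (adjusted p = 1.04e-05), the IBA1+ value of 0.05 was not, and the interaction was -2.16 ± 0.33 (SE, adjusted p = 2.63e-07). Fmo2, a flavin monooxygenase, fell by 1.30 in PanCK+ and rose by 1.14 in IBA1+ segments (adjusted p = 0.00871 and 0.00999), with an interaction of -2.51 ± 0.43 (SE). Among lysosome genes, Cd63, a tetraspanin of lysosomes, had the only called interaction of 18 (-1.60 ± 0.40, SE), against 0.332% of all genes called lower. Cd63 rose by 2.38 in IBA1+ segments (adjusted p = 2.04e-08). It was lost without ROI 028 or 029.

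**Figure D2:**
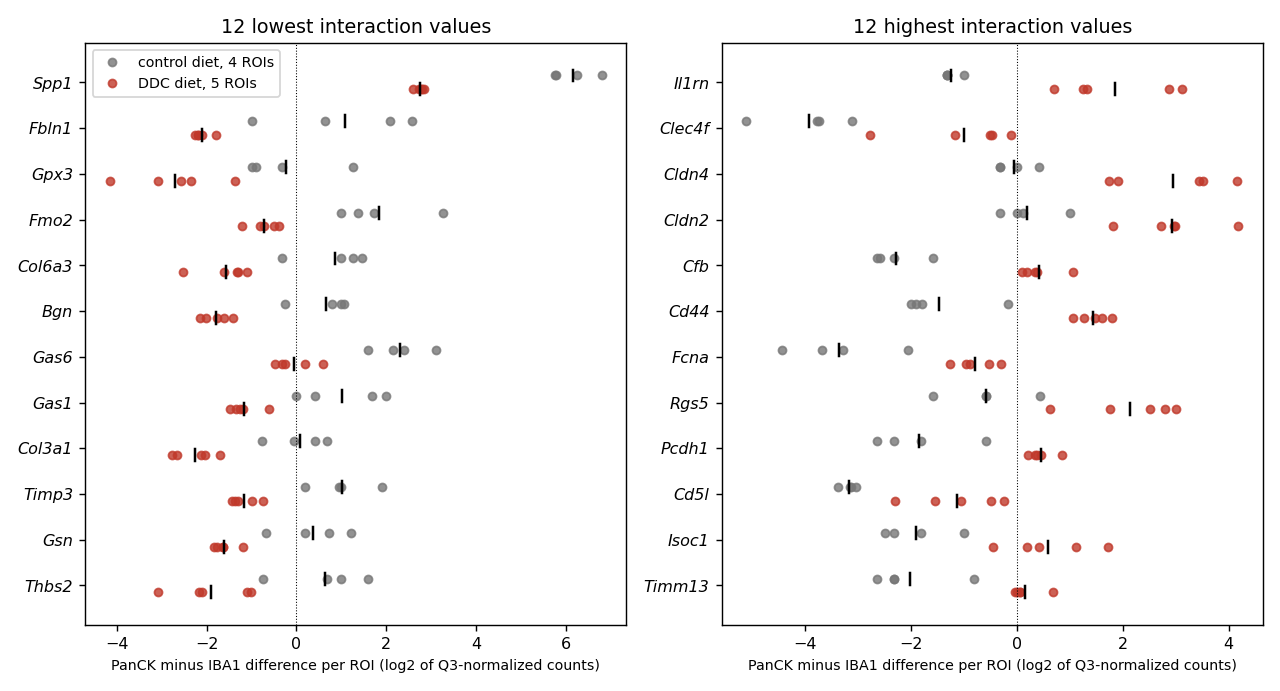
PanCK+ minus IBA1+ difference of each ROI (horizontal axis, log2 of normalized counts) for the genes with the 12 lowest (left) and the 12 highest (right) interaction values among called genes whose ROIs do not overlap. Grey points are the 4 control diet ROIs, red points the 5 DDC ROIs and black ticks their means, and every red group lies wholly to one side of the grey.

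Some genes on the positive side, 12 of the 137, were called higher on DDC in the PanCK+ segments. Cldn4, a tight junction claudin of duct epithelium, was at 7.00, 2.63, 2.63 and 4.20 normalized counts in PanCK+ and 8.75, 2.63, 1.97 and 5.25 in IBA1+ segments on the control diet. The DDC levels were 28.3, 27.3, 42.9, 21.3 and 39.9 in PanCK+ and at 2.47, 7.27, 3.94, 6.34 and 2.25 in IBA1+ segments. The segments were alike on the control diet, at 1 to 5 counts, and the PanCK+ segment was higher in all 5 DDC ROIs. Cldn4 rose in PanCK+ segments by 2.97 (adjusted p = 2.54e-06) and its interaction was 2.71 ± 0.72 (SE, adjusted p = 0.0175), which was lost when ROI 026, 027, 029 or 034 was left out. Cldn2, a claudin that forms cation and water pores, rose in PanCK+ segments by 2.42 (adjusted p = 3.41e-05) with an interaction of 2.58 ± 0.64 (SE, adjusted p = 0.00698) that was lost without ROI 028 or 029. On the control diet Cldn2 was at 1 count in 2 of the PanCK+ segments. Cldn3, a further claudin named here after its values were seen, had an interaction of 1.76 ± 0.41 (SE, adjusted p = 0.00342).

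Cd44, the hyaluronan receptor, changed the order of the segments. It was at 3.50, 5.25, 15.8 and 4.20 in PanCK+ and at 14.0, 19.7, 17.7 and 14.4 in IBA1+ segments on the control diet. The DDC levels were 42.8, 37.1, 51.2, 31.9 and 59.2 in PanCK+ and at 12.4, 17.8, 18.4, 13.3 and 19.5 in IBA1+ segments. It was thus lower in the PanCK+ segment of all 4 control diet ROIs and higher in all 5 DDC ROIs, with no shift in the IBA1+ range. The control diet PanCK+ levels rest on low counts, with 1 of the 4 segments at 1 count. In ROI 028, where that level was highest, the log2 difference was only -0.17. The rise in PanCK+ segments was 2.60 (adjusted p = 2.83e-06) and the interaction 2.58 ± 0.47 (SE, adjusted p = 4.51e-05), called whichever ROI was left out. Rgs5, a regulator of G-protein signalling, rose in PanCK+ segments by 3.13 (adjusted p = 6.3e-09), from 7.00 to 23.1 on the control diet to 39.4 to 163.5 on DDC, with an interaction of 2.37 ± 0.44 (SE, adjusted p = 5.74e-05).

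Il1rn, the antagonist of the interleukin 1 receptor, had the highest interaction value of the called genes whose ROIs do not overlap, 2.91 ± 0.70 (SE, adjusted p = 0.005), lost without ROI 028. It was at 1 count in all 4 PanCK+ segments on the control diet and at 15 to 61 counts on DDC, against 4 to 10 and 3 to 17 counts in IBA1+ segments. Since 1 count is the lowest value of those segments, the size of this interaction is not fixed by the data. The same caution holds for the complement factor Cfb (2.58 ± 0.58, SE), the protocadherin Pcdh1 (2.36 ± 0.61), Isoc1 (2.20 ± 0.61) and the mitochondrial import protein Timm13 (2.06 ± 0.61), each at 1 or 2 counts in every PanCK+ segment on the control diet. Cfb rose in PanCK+ segments by 1.88 (adjusted p = 0.0319), and the PanCK+ changes of Pcdh1, Isoc1 and Timm13 were not called. Pcdh1 was lost without ROI 027, 028, 029 or 035, Isoc1 without ROI 026, 027, 028, 029 or 034, and Timm13 without any ROI but 027 and 033. With every segment thinned to 35078 counts, none of the 12 highest genes was called, and 8 of the 12 lowest were, while all 24 kept their sign.

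The cholangiocyte markers did not move together. Of 20 measured, 1 had a called positive interaction (Cldn4), against 1.3% of all genes. A called negative one was found for 2, Spp1 and the annexin Anxa5, against 0.332% of all genes. Anxa5 had -1.05 ± 0.29 (SE) and was lost when any of 6 ROIs was left out. The median of 0.24 was near that of all genes. Their summed level was 843.8 to 1206 in PanCK+ and 107.7 to 140.5 in IBA1+ segments on the control diet, and 1007 to 2418 and 276.9 to 461.6 on DDC. The list's median lay between -0.15 and 0.62 over the 20 settings, so it has no settled direction.

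**Figure D3:**
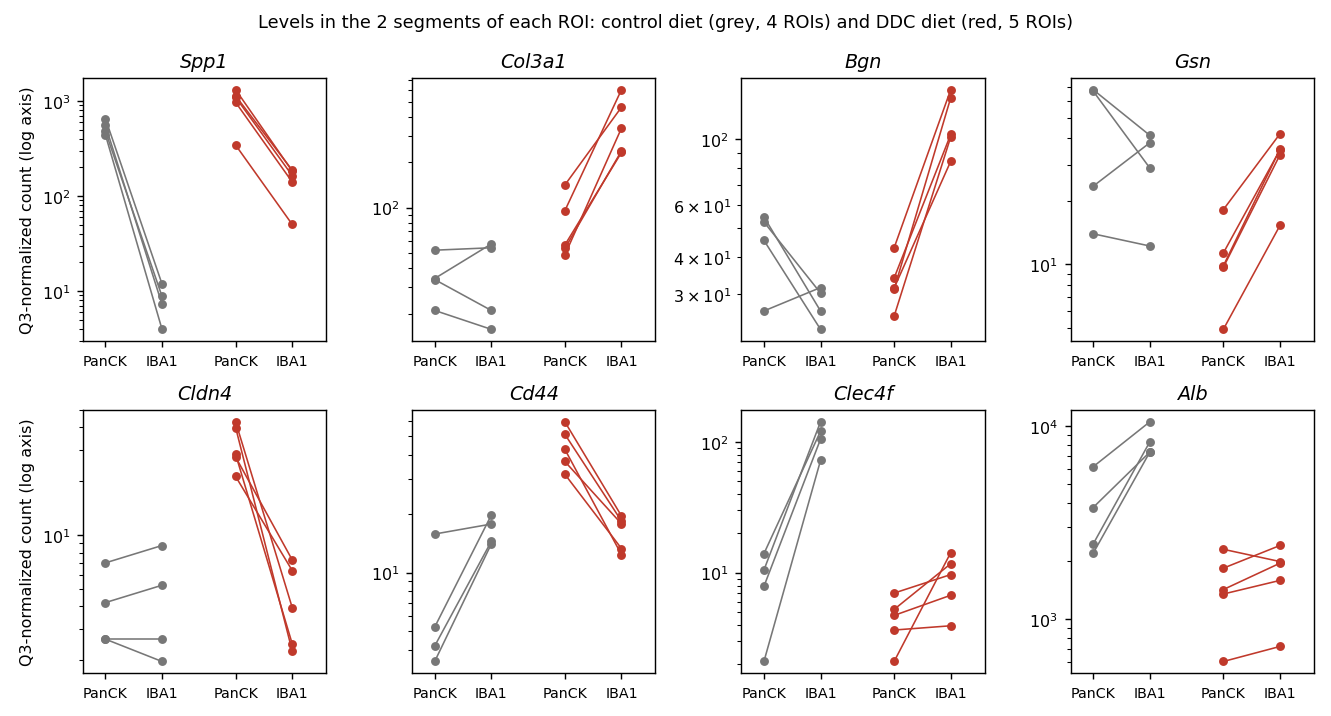
Normalized count (log axis) of 8 genes in the PanCK+ and the IBA1+ segment of each ROI, joined by a line, for the 4 control diet ROIs (grey) and the 5 DDC ROIs (red). All control diet lines run opposite to all DDC lines for Cd44, as do 3 of the 4 control diet lines for Bgn and Gsn, while lines are steeper on DDC for Col3a1 and Cldn4 and flatter for Spp1, Clec4f and Alb.

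A different positive group consisted of resident macrophage genes that fell in the IBA1+ segments. Clec4f, a C-type lectin known from Kupffer cells, was at 120.8, 105.0, 142.5 and 72.2 normalized counts in the IBA1+ segments on the control diet and at 11.7, 9.70, 3.94, 6.74 and 14.3 on DDC. In PanCK+ segments it was at 14.0, 7.88, 10.5 and 2.10 on the control diet and at 5.25, 7.00, 3.65, 4.73 and 2.10 on DDC. The PanCK+ minus IBA1+ log2 difference moved from -5.10 to -3.11 on the control diet to -2.76 to -0.11 on DDC. The IBA1+ excess thus shrank, and the IBA1+ segment was still the higher in all 5 DDC ROIs. Clec4f fell by 3.63 in IBA1+ segments (adjusted p = 1.58e-19) and its interaction was 2.83 ± 0.46 (SE, adjusted p = 2.63e-06). Fcna, the lectin ficolin A of the same cells, was at 68.3, 56.5, 101.1 and 43.3 in IBA1+ segments on the control diet and at 11.7, 6.46, 3.94, 8.72 and 12.0 on DDC, a fall of 2.99 (adjusted p = 1.88e-17). Its interaction was 2.42 ± 0.47 (SE, adjusted p = 0.000167).

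Cd5l, an apoptosis inhibitor secreted by resident macrophages, was at 61.3 to 93.2 in IBA1+ segments on the control diet and at 8.54 to 24.8 on DDC. It fell by 2.42 (adjusted p = 5.96e-13) and had an interaction of 2.21 ± 0.45 (SE, adjusted p = 0.000396). Slc40a1, the iron exporter ferroportin, was at 39.4 to 55.8 and at 10.7 to 28.5, and fell by 1.502 (adjusted p = 2.08e-06) with an interaction of 1.58 ± 0.43 (SE, adjusted p = 0.0232) that was lost without ROI 027, 029 or 035. Of 12 measured Kupffer cell markers, 4 had a called positive interaction, against 1.3% of all genes, and none a negative one. Their median was 1.47 against 0.15 for all genes. With thinned counts none of the 12 was called, without the ROI block 2 were, and by limma 3 and 1 with a pseudocount of 1 and 0.5. The complement genes did not share the fall. C1qc was at 106.4 to 130.0 in IBA1+ segments on the control diet and at 77.1 to 185.3 on DDC, and its interaction of 1.49 ± 0.43 (SE, adjusted p = 0.0434) was lost when any of 7 ROIs was left out. Of 13 measured markers of monocyte-derived macrophages none had a called interaction, and their median was -0.39. Their summed level was 140.5 to 246.2 in IBA1+ segments on the control diet and 269.7 to 564.2 on DDC. In PanCK+ segments it was 56.0 to 130.3 on the control diet and 165.6 to 237.9 on DDC, so it rose in both segment types. The PanCK+ levels of Clec4f, Fcna, Cd5l, Slc40a1 and C1qc lay at 1 to 6 counts on the control diet, so a fall there is bounded by the floor of 1 count.

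Hepatocyte genes gave more called genes than any other list. Alb, the plasma protein albumin, was at 6166, 2195, 2450 and 3790 normalized counts in PanCK+ and at 10540, 7340, 8296 and 7340 in IBA1+ segments on the control diet. On DDC it was at 1349, 1423, 2301, 602.7 and 1837 in PanCK+ and at 1587, 1949, 1988, 721.2 and 2408 in IBA1+ segments. The IBA1+ segment held more Alb in all 4 control diet ROIs, and the 2 segments were close on DDC. Alb fell by 2.28 in IBA1+ segments (adjusted p = 2.45e-05), the PanCK+ value of -1.28 was not called (adjusted p = 0.105), and the interaction was 1.08 ± 0.21 (SE, adjusted p = 0.00016). Of 14 measured hepatocyte markers, 13 had a called positive interaction, against 1.3% of all genes, and none a negative one, with a median of 1.12. With thinned counts 4 were called, and by limma with either pseudocount or without the ROI block 0 were. The urea cycle enzyme Ass1 had 1.56 ± 0.26 (SE), the apolipoprotein Apoa1 1.23 ± 0.22 and the thyroxine carrier Ttr 1.25 ± 0.24, and each fell in IBA1+ segments.

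The summed level of the hepatocyte list was 3411 to 8803 in PanCK+ and 11290 to 15530 in IBA1+ segments on the control diet, and 1166 to 3992 and 1382 to 4140 on DDC. Hepatocyte RNA was thus present in both segment types, and its part in the IBA1+ falls was not tested. Without the ROI block the adjusted p was 0.737 for Alb, 0.458 for Apoa1, 0.438 for Ttr and 0.198 for Ass1. The median of the list was above that of all genes in all 20 settings, at 0.87 to 1.26.

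Other liver products followed. Of 17 acute phase genes 8 had a called positive interaction, against 1.3% of all genes, with a median of 1.06. None was called without the ROI block or by limma with either pseudocount. C3, the central complement component, was at 213.6, 157.6, 199.6 and 287.8 in PanCK+ and at 437.7, 298.1, 325.0 and 296.7 in IBA1+ segments on the control diet. The DDC levels were 447.2, 385.9, 599.7, 181.2 and 517.2 in PanCK+ and at 247.8, 262.6, 243.6, 125.7 and 281.4 in IBA1+ segments. The PanCK+ segment was the lower in all 4 control diet ROIs and the higher in all 5 DDC ROIs, the interaction was 1.47 ± 0.23 (SE, adjusted p = 3.95e-07), and neither the PanCK+ value of 0.99 nor the IBA1+ value of -0.55 was called. Hp, the haemoglobin scavenger haptoglobin, rose in PanCK+ segments by 1.89 (adjusted p = 0.000567) with an interaction of 1.09 ± 0.27 (SE). The fibrinogen chains Fgg and Fga fell in IBA1+ segments by 1.82 and 1.79 (adjusted p = 4.91e-06 and 1.33e-05), with interactions of 1.24 ± 0.24 and 1.18 ± 0.24 (SE). Orm1, an acute phase glycoprotein, had 1.64 ± 0.30 (SE) and fell in IBA1+ segments by 1.08 (adjusted p = 0.00966).

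Of 21 genes of heme and iron handling, 4 had a called positive interaction, against 1.3% of all genes: Slc40a1, Hp, the heme carrier Hpx (1.08 ± 0.24, SE) and Hamp (1.26 ± 0.27), which encodes hepcidin and fell in IBA1+ segments by 1.89 (adjusted p = 1.66e-06). Of 17 cytochrome P450 and conjugation genes, 3 did, namely Cyp2d26 (1.55 ± 0.30, SE), Gsta3 (1.43 ± 0.31) and Cyp2d10 (1.36 ± 0.37). Neither list had a called gene without the ROI block or by limma with either pseudocount. Hpx was lost without ROI 027 or 028, Hp without ROI 028 or 034 and Cyp2d10 without ROI 026, 027, 029 or 034. Scd1, a fatty acid desaturase named after its values were seen, fell in both segment types, by 3.75 in IBA1+ and 2.14 in PanCK+ segments, with an interaction of 1.63 ± 0.26 (SE, adjusted p = 8.21e-07). The Scd1 interaction was not called without the ROI block (adjusted p = 0.169) or with thinned counts (adjusted p = 0.346). By limma with a pseudocount of 1 and 0.5 it was not called either (adjusted p = 0.057 and 0.098). None of 18 measured bile acid genes was called, and their median was 0.62.

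**Figure D4:**
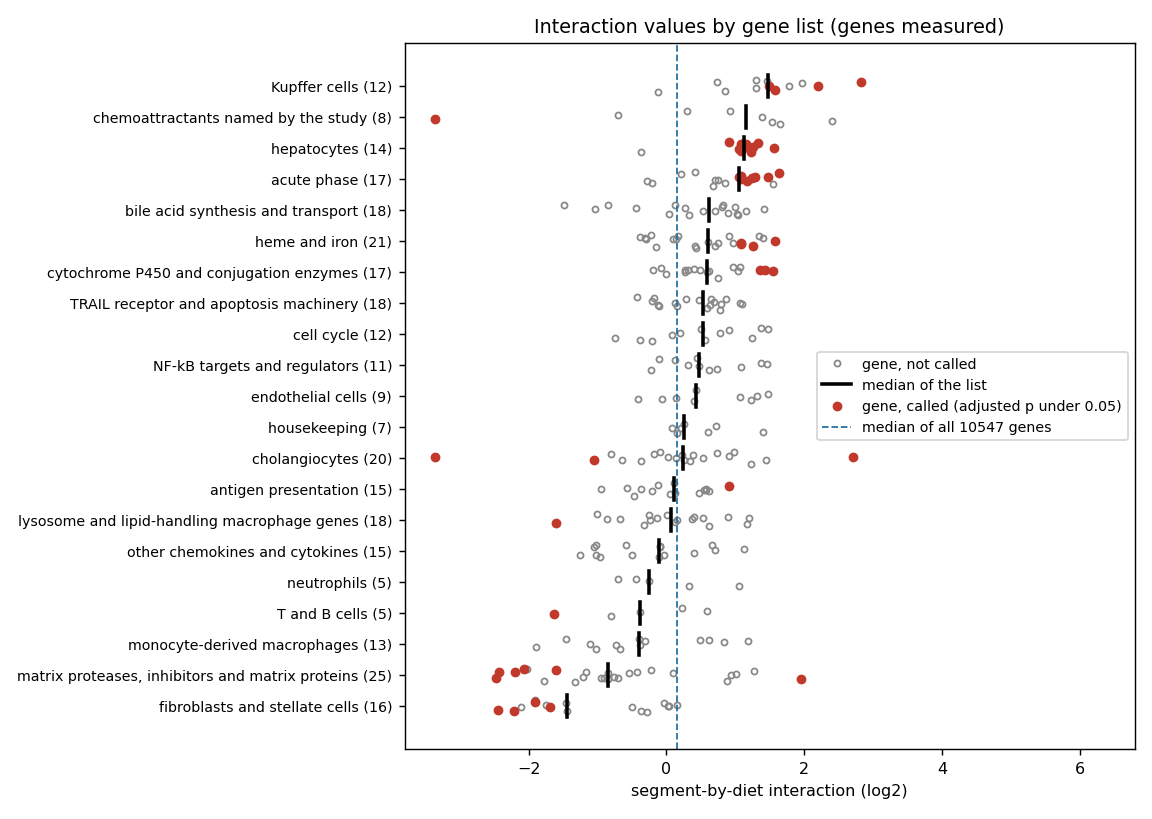
Interaction (horizontal axis, log2) of the measured genes of each list with 5 or more measured (vertical axis, number measured), as open points where not called and red points where called, with the list's median as a black bar and the median of all genes as a dashed line at 0.15. The Kupffer cell, chemoattractant, hepatocyte and acute phase medians lie to its right at 1.47, 1.15, 1.12 and 1.06, and the fibroblast and matrix medians to its left at -1.45 and -0.85. The chemoattractant list holds genes that the study picked from these same data.

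The study named chemoattractants among its spatial results, and Spp1 was the 1 called gene of the 8 on that list, against 0.332% of all genes called lower. The study reported genes of this list, among them Cxcl5 and S100a8, as raised in cholangiocytes of DDC-fed TrailΔmye mice in these same data. The values of the list are thus a description and no independent test. Of these genes, 6 of the 8 lay above 0 and the median was 1.15, above that of all genes in all 20 settings. On DDC 3 of the 8 were called higher in PanCK+ segments. The share of all genes was 1.32%, but it is no fair measure for genes picked from these segments. Ccl2, which draws monocytes, was at 3.50, 2.63, 5.25 and 2.10 normalized counts in PanCK+ and at 3.50, 2.63, 3.28 and 3.94 in IBA1+ segments on the control diet. On DDC it was at 60.6, 34.3, 67.6, 25.3 and 66.0 in PanCK+ and at 10.5, 12.9, 6.57, 6.94 and 6.002 in IBA1+ segments. The PanCK+ segment was higher in all 5 DDC ROIs and their differences did not overlap with those of the control diet. Ccl2 rose in PanCK+ segments by 3.91 (adjusted p = 1.78e-09), yet its interaction of 2.40 ± 0.78 (SE) was not called (adjusted p = 0.0971), with 1 or 2 counts in the PanCK+ segments on the control diet. It was called in 3 of 10 other settings, by limma with a pseudocount of 1 and 0.5 (adjusted p = 0.0151 and 0.0325) and with counts of 1 set to 0 (adjusted p = 0.0133), whichever ROI was left out it was not called, and it was at -0.72 with the negative probe count taken off (adjusted p = 0.899).

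Cxcl5, a neutrophil attractant, rose in PanCK+ segments by 2.50 (adjusted p = 0.000389), from 1 to 4 counts on the control diet to 47 to 117 on DDC, and had an interaction of 1.65 ± 0.72 (SE, adjusted p = 0.359). S100a8, a calcium-binding protein of neutrophils, rose in both segment types, by 1.99 in PanCK+ and 2.69 in IBA1+ segments (adjusted p = 0.0427 and 2.35e-06), with an interaction of -0.70 ± 0.85 (SE, adjusted p = 0.893). Cxcl1 (0.92 ± 0.74, SE), Cx3cl1 (0.30 ± 0.74) and Tnf (1.53 ± 0.76) were not called, and lay at 1 to 3 counts in the PanCK+ segments on the control diet. None of 15 other measured chemokines and cytokines was called, and none of 18 genes of the TRAIL receptor and apoptosis machinery (median 0.53). H2-K1, a class I antigen presenting molecule, was the 1 called gene of 15 in its list (0.91 ± 0.25, SE, adjusted p = 0.0203), against 1.3% of all genes called higher. It was lost without ROI 026, 027, 034 or 035. No gene was called among 9 endothelial, 5 neutrophil, 12 cell cycle, 11 NF-kB and 7 housekeeping genes measured.

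Single ROIs carried some calls. Igkc, the immunoglobulin kappa constant region of plasma cells, had an interaction of -1.63 ± 0.45 (SE, adjusted p = 0.0286). It was at 814 counts in the IBA1+ segment of ROI 036 and 307 in that of ROI 029, against 1 to 36 in the other 7 IBA1+ segments, and without ROI 036 the interaction was 0.14. The haemoglobin gene Hba-a1, named after its values were seen, had 2.02 ± 0.42 (SE, adjusted p = 0.000478) and was at 767 counts in the IBA1+ segment of ROI 028, against 7 to 12 in the other control diet IBA1+ segments. Without ROI 028 it was -0.70 (adjusted p = 0.812). Hbb-b2 and Hbb-b1 moved from 2.74 and 1.58 to -0.14 and -2.03 without that ROI.

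The WT livers give the same contrast in mice without the deletion. Their segments had 20319 to 61665 counts, and 21.8% to 70.3% of genes lay at 1 count. In a fit of all 15 ROIs, no gene had an interaction that differed between the genotypes (0 of 10547, 0%, in edgeR's quasi-likelihood test), and 133 genes had an unadjusted p under 0.05. DESeq2 called 0 genes too. Limma on log2(normalized count + 1) called 2 genes, Adora1 (a difference of 3.97 ± 0.77, SE, adjusted p = 0.0281) and Aqp1 (3.95 ± 0.77, adjusted p = 0.0281), an adenosine receptor and a water channel, both at 1 to 5 counts in every WT segment and named after their values were seen. With these depths the errors of the WT values were large, and a difference between genotypes was not detectable beyond them. The WT interaction of Spp1 was -4.51 ± 0.80 (SE), of Bgn -2.24 ± 1.02, of Clec4f 3.91 ± 1.05, of Cd44 2.61 ± 1.26 and of Alb 1.05 ± 0.41. Of the 137 genes with a positive interaction in TrailΔmye ROIs, 122 lay above 0 in WT, against 4509 of all 10547 genes. Of the 35 with a negative one, 33 lay below 0 in WT, against 6038 of all genes. The WT medians of these groups were 1.02 and -1.56, and that of all genes was -0.16.

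**Figure D5:**
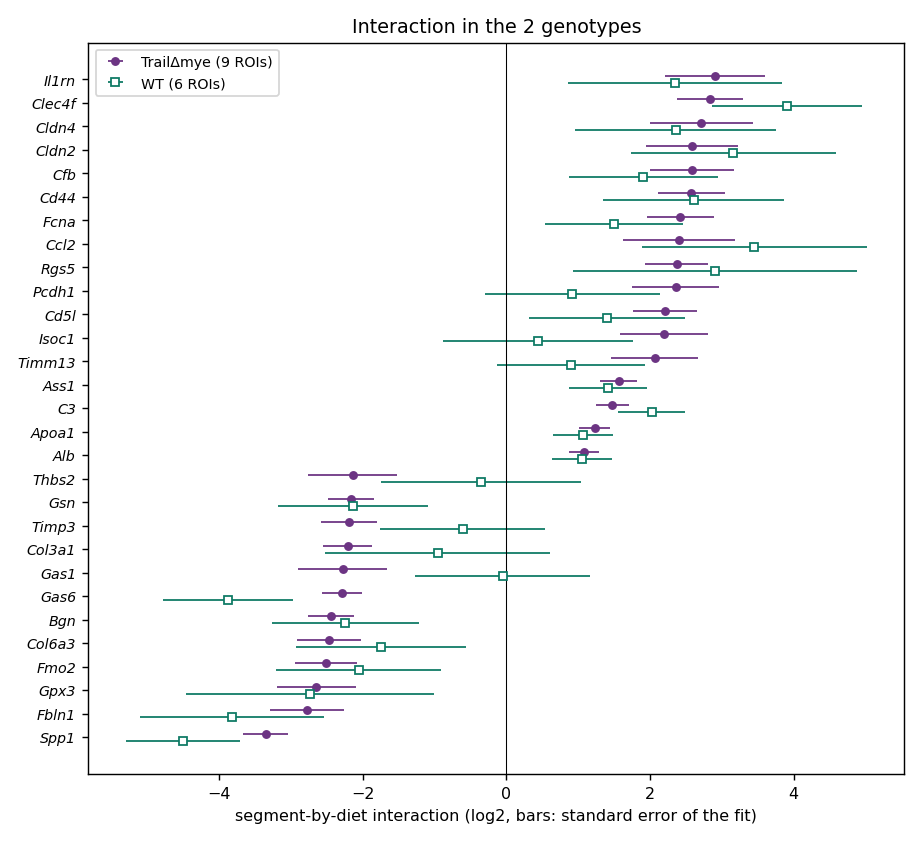
Segment-by-diet interaction (horizontal axis, log2) of the 24 extreme genes, 12 at each end among called genes whose ROIs do not overlap, and of Alb, Apoa1, Ass1, C3 and Ccl2, in TrailΔmye (filled, 9 ROIs) and WT (open, 6 ROIs). Bars are the standard error of each fit, longer in WT for every gene shown.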

How the data were processed

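GeoMx values of 18 periportal TrailΔmye segments were analysed, with 12 WT segments for the genotype comparison. The expected counts per gene target are the authors' deposited values, made after 18 cycles of amplification, sequencing and a custom R workflow that filtered targets on the limit of quantification. The normalized counts are the authors' deposited signal after Q3 normalization, which scales each segment to one 75th percentile. That percentile was 3 to 5 counts in control diet PanCK+ segments. Values of 3 genes that were not whole were rounded, and 1 negative probe row was left out.

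The interaction was tested by the quasi-likelihood F test of edgeR (version 4.0.16, R 4.3.3) with upper-quartile factors, no filter and Benjamini-Hochberg adjustment over 10547 genes, and a term for each ROI. The 2 segments of an ROI come from the same tissue. Over genes, their deviations from the group means correlated at 0.0038 to 0.59, above 0.1 in 3 of 9 ROIs, all on DDC. The value of 0.59 was that of ROI 035, and the control diet ROIs lay at 0.0038 to 0.035. Diet effects within a segment type came from a fit of 4 groups, the genotype difference from all 15 ROIs. An SE is the log2 value over the square root of F. Alternatives used TMM factors, DESeq2 1.42.0, limma 3.58.1, filterByExpr, thinned counts, counts of 1 set to 0, no ROI block, all 15 ROIs, and each ROI left out. Taking the negative probe count off was added after the data were seen.

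Genes were named by rule: the 12 highest and 12 lowest interaction values among called genes whose ROIs do not overlap, up to 4 called genes of each list, the study's chemoattractants, and Krt19, Epcam, C1qa, Clec4f, Alb and Col1a1 as checks of the labels. The members, the 8 cell type and 15 pathway lists and the rule were chosen with earlier results of these data known. The targeted gene and 1 chemoattractant are not reported here. The other lists, T and B cells (1 of 5 called lower, against 0.332% of all genes), the major urinary proteins (0 of 1) and Y-linked targets (0 of 4), gave no more.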

Additional observations from a re-analysis of the deposited data

Results flagged for a closer look

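In 5 of 114 groups of ROIs that were tested, 1 ROI stood apart from the others of its diet in the PanCK+ minus IBA1+ log2 difference, and chance gives about 1 in 20 such groups. Il1rn was at -1 in control diet ROI 026 and at -1.32 in the other 3, all with 1 count in the PanCK+ segment. Cd44 was at -0.17 in control diet ROI 028, against -2 to -1.78 in the others. C1qc was at -5.17 in control diet ROI 026, against -3.89 to -3.63, and Cyp2d10 at -1.26 in control diet ROI 028, against -1.81 to -1.72. Timm13 was at 0.68 in DDC ROI 036, against -0.04 to 0.05 in the other DDC ROIs. The cause of these gaps was not tested.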

How the results depend on the processing

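The interaction was called for 172 genes, and for 142 with TMM factors, 136 with DESeq2 (1550 genes with an adjusted p), 163 after filterByExpr, 229 with counts of 1 set to 0, 133 with all 15 ROIs and 199 with the negative probe count taken off, an alternative chosen after seeing the data. It was called for 45 and 23 genes by limma with a pseudocount of 1 and 0.5, for 36 with counts thinned to one total, and for 28 without the ROI block that pairs the segments. Leaving out an ROI gave 104 to 177 genes, with 106 without ROI 027, 104 without ROI 028 and 110 without ROI 034. At least 169 of the 172 genes kept their sign in every setting. The diet effect in PanCK+ segments was called for 199 genes, for 482 and 459 by limma, 87 with thinned counts and 487 with counts of 1 set to 0. Leaving out an ROI gave 100 to 399, with 124, 119, 100 and 108 without ROI 026, 027, 028 and 029 and 399 without ROI 035. In IBA1+ segments 808 genes were called, and 265 with thinned counts. The genotype difference was called for 0 genes, and for 2 by limma with either pseudocount. The cause of these shifts was not tested.

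Signs turned for 5 genes named by the rule, and for 5 others given in the text. Epcam, at 0.02, was at -0.19 with TMM factors, -0.23 with DESeq2, -0.031 by limma with a pseudocount of 0.5, -0.020 after filterByExpr, -0.079 with counts of 1 set to 0 and -0.83 with the negative probe count taken off, and at -0.32 to 0.34 with an ROI left out. Cx3cl1 was at -0.030 with thinned counts and at -0.24 to 0.65 with an ROI left out, S100a8 at 0.41 with counts of 1 set to 0, Ccl2 at -0.72 with the negative probe count taken off, and Igkc at -3.002 to 0.14 with an ROI left out. Without ROI 028 Hba-a1 was at -0.70, Hbb-b2 at -0.14 and Hbb-b1 at -2.03, and Hbb-b1 was at -0.96 with DESeq2 and at -0.44 and -0.53 by limma. Neither Ddx3y nor Gm21783 had a called interaction, Ddx3y being at 0.97 with counts of 1 set to 0 and 0.57 with the negative probe count taken off, and Gm21783 at 0.11 with counts of 1 set to 0 and 0.13 without ROI 029. Of 48 named genes with a called interaction, 27 were called whichever ROI was left out and 18 without the block. In control diet PanCK+ segments 19.7% to 41.5% of genes lay at 1 count, below which no fall could be measured.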

Other observations

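Over 8712 genes with a mean count of at least 10, the SD of the PanCK+ minus IBA1+ log2 difference within an ROI was 0.93 to 1.02 on the control diet and 0.43 to 0.91 on DDC. With every segment thinned to the same total it was 1.19 to 1.38 on the control diet and 1.27 to 1.45 on DDC, so the order of the diets turned with depth. The lowest of the unthinned values, 0.43, was that of ROI 035.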
